A study of Mus musculus with 12 samples.

Results

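The miR-467 group is a set of small RNAs encoded in the mouse genome in many near-identical copies. Its members were selected by name, as every assay called miR-467 with any letter or arm, which gave 8 of the 513 miRNA assays with values. They are miR-467a, miR-467b, miR-467c, miR-467d and miR-467e and the star forms miR-467a*, miR-467b* and miR-467e*. The name uses no measured value, but the group was put forward with the ligated and control values of these samples known, mmu-miR-467a and mmu-miR-467d above all (mmu marks the mouse form and is left out from here on). Differences between ligated and control arteries are therefore given as descriptions, with no test of their own.

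Levels were measured by quantitative PCR in carotid arteries of female apoE-/- mice, which lack apolipoprotein E and develop atherosclerosis on a fatty diet. The 6 ligated samples are left carotid arteries, labelled atherosclerotic, in which the external and internal carotid and the occipital artery had been tied leaving the superior thyroid artery as the one way out for blood. The 6 control samples are untreated right carotid arteries, labelled non-atherosclerotic. All 12 came from animals of the same strain, labelled 6 to 8 weeks old, on 6 weeks of a diet with 21% fat and 0.15% cholesterol, so both groups share the genotype and the diet. Which 2 arteries came from one mouse is not given by the labels.

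A microRNA is cut from a hairpin, and either arm of the hairpin can be loaded into the silencing complex, where its seed, bases 2 to 8 of the mature strand, pairs with messenger RNAs. In the naming used here the star marks the arm taken to be the lesser product. Most miR-467 hairpins lie in an intron of Sfmbt2, a Polycomb-related gene that is imprinted in mouse and expressed from the paternal copy in placenta. In mouse cells and tissues miR-467 is known as a glucose-induced repressor of thrombospondin-1, a matrix protein that restrains vessel growth.

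By the RefSeq annotation of GRCm38.p6, all 14 hairpin genes of miR-467a to miR-467e lie on chromosome 2 within Sfmbt2, 10 of them for miR-467a and 1 for each other letter. Each of the 14 had a miR-466 or miR-669 gene on both sides: 12 were preceded by a miR-669 gene and 13 were followed by a miR-466 gene, in the order of the chromosome. An assay for miR-467a therefore reads the sum of up to 10 copies, and how far the assays read one another's products was not tested. Among the relatives, 23 of 28 miR-466, 29 of 30 miR-669 and 5 of 6 miR-297 hairpin genes lie in the same cluster.

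The reference used listed no mature sequence for any of the 8 assayed members. Shown instead are 3 relatives that lie outside the cluster and had no assay here, which do not give the letters of the measured RNAs. They are miR-467f on chr11:69635419-69635439 (minus strand), miR-467g on chr5:34732872-34732892 (minus strand) and miR-467h on chr9:115381898-115381919 (plus strand). The sequences are RefSeq's for GRCm38.p6, written 5′ to 3′ with the seed in capitals.
miR-467f: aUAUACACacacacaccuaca
miR-467g: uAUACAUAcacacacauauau
miR-467h: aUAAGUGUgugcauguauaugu
miR-467f and miR-467g are made largely of A and C, with 18 and 15 such bases of 21, while miR-467h is made largely of G and U, with 15 of 22. The 3 seeds differ, and the repeat-like stretches of alternating bases are plain in each. The names do not say which arm of its hairpin each strand is, so these contrasts need not be between like arms.

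A raw threshold cycle (Ct) is the PCR cycle at which an assay's signal passes a set line, and it falls as the amount of RNA grows. Wells with no amplification are listed at 40. Wells with a Ct below 35 were called detected. A level is the mean Ct of 283 reference miRNAs, those with product in all 12 arteries, minus the assay's own Ct. It is on the log2 scale on the assumption of a doubling per cycle. Between 330 and 357 assays were detected in the ligated samples and between 317 and 341 in the control samples. Arteries numbered 1 to 3 stood apart from those numbered 4 to 6 over the whole assay panel, and the raw values were also listed in these 2 blocks. The shift between these sets had a median size of 1.03 in ligated and 0.88 in control arteries over the 339 assays tested. Differences are therefore also given within each set. The 4 smooth muscle and both endothelial miRNAs of a marker list were detected in all 12 samples, but so were 283 of 513 assays and all 6 leukocyte miRNAs, so detection alone does not single out the tissue.

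Of the 8 miR-467 assays, 6 were detected in all 12 arteries, miR-467d in all 6 ligated and 2 of 6 control arteries, and miR-467e* in none. Of their 96 wells, 80 amplified. The highest Ct among these 80 was 30.89 and the other 16 wells were listed at 40, so detection was the same at each limit tried. The 7 assays other than miR-467e* were detected often enough, in at least 4 of 6 samples of a group, to enter the fit over all 339 assays. In that fit (limma, Benjamini-Hochberg adjusted p below 0.05) miR-467a, miR-467c and miR-467d passed as higher in ligated arteries and none passed as lower, beside 7.37% of all 339 assays higher and 5.01% lower. miR-467d, with product in 2 of 6 control arteries, entered the fit through its ligated arteries alone, so its call follows in part from the filter and from the value set for undetected wells. Nothing is read from the count, since the group was proposed with it known. As a description, the median difference of the 7 that entered was 0.79, beside -0.05 over all assays tested.

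The 5 assays without a star all had higher mean levels in ligated arteries, and both tested star assays had lower ones. Over all assays tested, 162 of 339 had higher means in ligated arteries, and 137 of the 262 without a star. The difference of miR-467e was smaller than its SE, and the size of that of miR-467d depends on the value set for undetected wells. The plot of levels by sample shows the 6 assays detected everywhere, without miR-467d. For the 4 unstarred assays measured in every artery, the ligated minus control differences ran from 0.18 for miR-467e to 1.04 for miR-467a. In whole arteries, fewer cells of a type and less RNA per cell cannot be told apart.

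**Figure D1:**
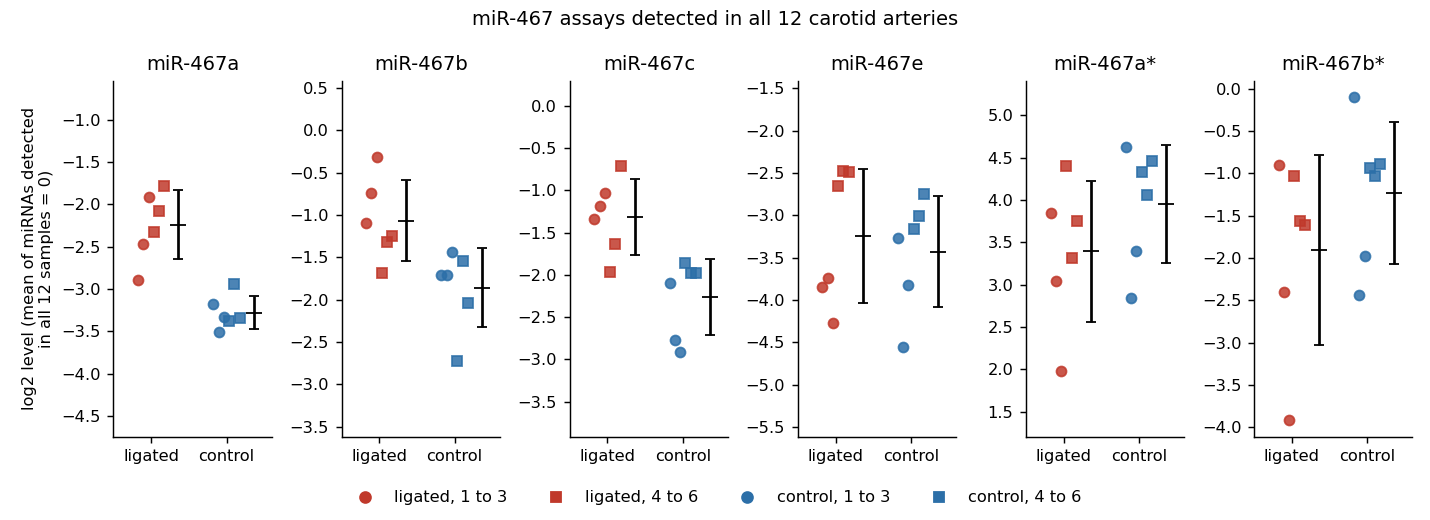
Log2 levels (y axis, where 0 is the mean of the 283 reference miRNAs, the same span in each panel) of the 6 miR-467 assays detected everywhere, in ligated and control arteries (x axis). Points are samples, circles for numbers 1 to 3 and squares for 4 to 6, and bars are mean ± SD (n = 6). The groups of miR-467a do not overlap, with a lowest ligated level of -2.89 and a highest control level of -2.94, whereas those of miR-467e and the star assays overlap widely.

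miR-467a, the form with the most genomic copies, had a lowest level of -2.89, a median of -2.20 and a highest level of -1.78 in ligated arteries. In control arteries the lowest, median and highest levels were -3.51, -3.33 and -2.94. The lowest ligated sample, number 1, was only just above the highest control sample, number 5, and no values overlapped. Complete separation with the ligated group higher was seen for 4.72% of all assays tested, and with it lower for 2.36%. miR-467a was the one member with such separation. Its means were -2.24 ± 0.41 in ligated and -3.28 ± 0.19 in control arteries (SD, n = 6 each), a difference of 1.04 ± 0.23 (SE), or 2.05-fold. Arteries 1 to 3 alone gave 0.92 and arteries 4 to 6 alone gave 1.16. That each ligated artery exceeded the control artery of its number, 6 of 6, follows from the separation and adds nothing to it. miR-467a passed in 23 of 26 alternatives. It did not with scaling to U6 and snoRNA429, in the deposited value table (0.83 in both) or within numbers 1 to 3. The alternatives refit the same samples, and the group was proposed with these values known. Such counts, here or below, are therefore no support for a difference.

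miR-467c, a single-copy form, had levels between -1.97 and -0.71 (median -1.26) in ligated arteries, against -2.91 to -1.86 (median -2.04) in control arteries. The groups overlapped at one point, where ligated 4, at -1.97, lay below control 4, at -1.86, and above all other control samples. The means were -1.31 ± 0.45 in ligated and -2.26 ± 0.45 in control arteries (SD, n = 6 each), a difference of 0.95 ± 0.28 (SE), or 1.93-fold. Within numbers 1 to 3 the difference was 1.40, and within numbers 4 to 6 it was 0.50. miR-467c passed in 8 of 26 alternatives. The call was lost with the replicate number as a block, where the difference was again 0.95, and when any 1 sample other than ligated 4 was left out, with differences between 0.82 and 1.08 over the 12 omissions.

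miR-467b, another single-copy form, did not pass. Its levels ran from -1.69 to -0.31 (median -1.17) in ligated arteries and from -2.72 to -1.43 (median -1.71) in control arteries. Each of the 6 ligated arteries exceeded the control artery of its number, but ligated 4 lay below control 3 and control 5. The difference was 0.79 ± 0.29 (SE), or 1.73-fold. Arteries 1 to 3 alone gave 0.90 and arteries 4 to 6 alone gave 0.68. With the replicate number as a block, or with the 2 sets as a block, the same difference of 0.79 passed.

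miR-467e had nearly the same mean level in both groups, -3.24 ± 0.79 in ligated and -3.43 ± 0.66 in control arteries (SD, n = 6 each). The difference of 0.18 ± 0.41 (SE) was smaller than the spread between samples of a group, and it was -0.07 within numbers 1 to 3, 0.43 within numbers 4 to 6, -0.02 when scaled to U6 and snoRNA429 and -0.04 without control 2. The 2 sets differed by more, with numbers 4 to 6 higher by 1.41 in ligated and 0.91 in control arteries. Ligated 1 to 3 lay between -4.27 and -3.74, below every ligated sample numbered 4 to 6, at -2.65 to -2.47. Its other arm, miR-467e*, was at 40 in all 12 samples.

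**Figure D2:**
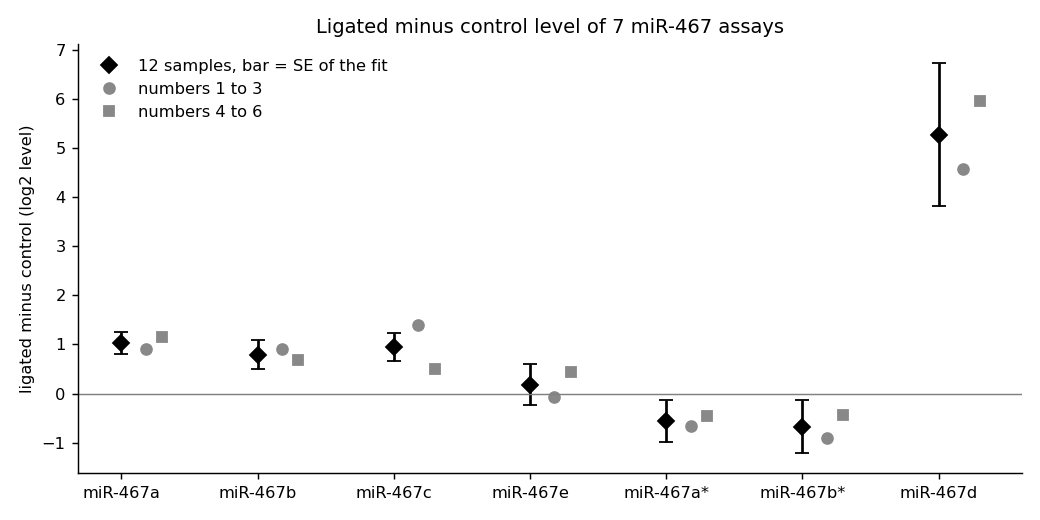
Ligated minus control difference in log2 level (y axis) for the 7 tested miR-467 assays (x axis), over all 12 samples (diamonds, bars are the SE of the whole-table fit) and within numbers 1 to 3 (circles) and 4 to 6 (squares). The 5 unstarred assays lie above 0 and the 2 star assays below it over all samples, miR-467e changes sign between the sets, and the position of miR-467d, at 5.27, depends on the value given to its undetected wells.

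miR-467d stood apart in its raw values. In ligated arteries its Ct was 28.50, 27.93, 27.82, 25.54, 26.06 and 25.85 in samples 1 to 6. In control arteries it amplified in sample 3, at 30.89, and in sample 4, at 28.34, and was listed at 40 in samples 1, 2, 5 and 6. Every ligated artery thus gave product, while 4 of 6 control arteries gave none, and control 4 had a lower Ct than ligated 1. Whether the 4 wells at 40 lacked the RNA or failed as reactions was not tested. With undetected wells set to 35 the difference was 5.27 ± 1.45 (SE), while arteries 1 to 3 alone gave 4.58 and arteries 4 to 6 alone gave 5.96. These values and the SE rest on 4 control values set by that choice, and the assay was fitted only because its ligated wells passed the filter, so the call is no support for the difference. It was 8.60 with those wells at 40 and 1.40 with them left missing, when 2 control samples remained and the call was lost. The call was also lost when ligated 4, 5 or 6 or control 1, 2, 5 or 6 was left out, with differences between 4.71 and 6.44 over all 12 omissions, with scaling to U6 and snoRNA429 (5.07), in the deposited table (8.40), with a stricter detection limit (3.31) and within either set. No fold is given, since it would follow the value put in for the 4 wells.

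**Figure D3:**
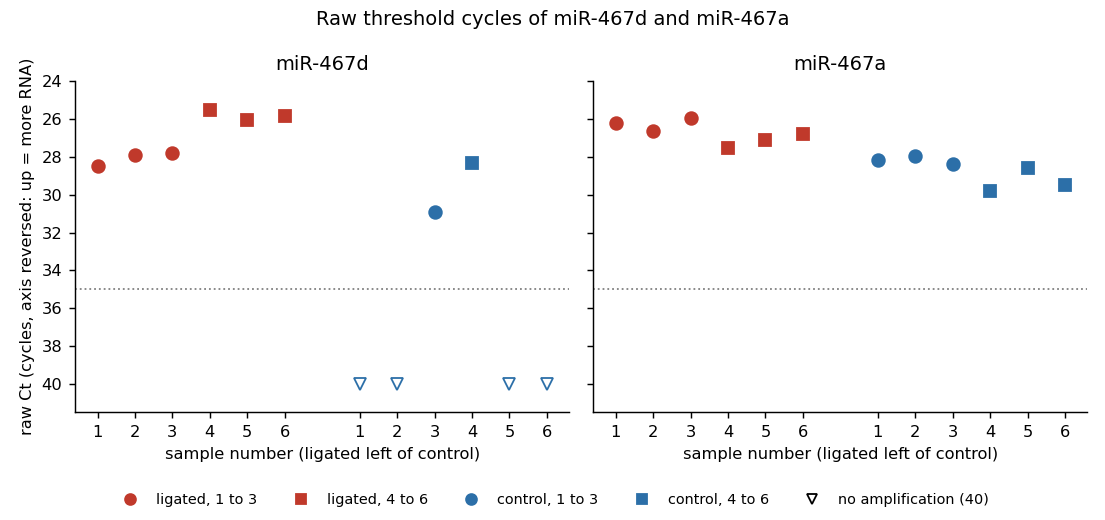
Raw Ct in cycles (y axis, reversed so that more RNA is up) of miR-467d and miR-467a in each sample by its number (x axis, ligated left of control). Circles are numbers 1 to 3, squares 4 to 6, open triangles wells with no amplification, and the dotted line is the detection limit of 35. miR-467d did not amplify in 4 control arteries, and in the ligated arteries its Ct is lower in numbers 4 to 6 than in 1 to 3, while that of miR-467a is higher there.

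The 2 sets of numbers separated miR-467d more than any other detected member. Its level was 3.49 higher in numbers 4 to 6 than in 1 to 3 among ligated arteries, a shift that 14 of the 339 assays tested reached or passed, miR-467d included. For miR-467a the same shift was 0.36, and for miR-467b it was -0.70. Set directly against miR-467a in the same sample, which removes the scaling, miR-467d stood at -2.28, -1.27 and -1.86 log2 units in ligated 1 to 3 and at 1.99, 1.04 and 0.94 in ligated 4 to 6. The 2 control samples with product split the same way, with -2.52 in number 3 and 1.46 in number 4. These differences between assays carry any difference in assay efficiency, so only their change from sample to sample is described. That change need not be one of RNA amount, since 2 rows of one control RNA also shifted unequally. Against the reference miRNAs, Y1 was higher in numbers 4 to 6 by 1.11 in its first row and 3.02 in its second. The rows of Y1 differed most among the repeated control RNAs. For U87 the shifts were 0.50 and -0.14, for snoRNA135 0.27 and 1.23, for snoRNA202 0.56 and 0.24 and for U6 -1.23 and -1.74. The part of such shifts in the split of miR-467d was not tested. A smaller split of the same direction was seen between miR-467a and miR-467b in ligated arteries, where miR-467a stood at -1.79, -1.72 and -1.60 relative to miR-467b in numbers 1 to 3 and at -0.64, -0.76 and -0.53 in numbers 4 to 6. In control arteries the same values were -1.47, -1.80 and -1.90 in numbers 1 to 3 and -0.66, -1.40 and -1.31 in numbers 4 to 6.

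The star assays behaved as a pair. miR-467a* had levels of 1.98 to 4.40 (median 3.53) in ligated arteries, against 2.84 to 4.63 (median 4.20) in control arteries. miR-467b* had levels of -3.92 to -0.90 (median -1.59) in ligated arteries, against -2.44 to -0.10 (median -0.99) in control arteries. Both overlapped widely and neither passed, with differences of -0.56 ± 0.43 (SE) and -0.67 ± 0.54 (SE). By number, the ligated artery exceeded its control artery in 2 of 6 cases for miR-467a* and in 1 of 6 for miR-467b*. The 77 star-named assays tested had a median difference of -0.31 and 25 of them were above 0, while the 262 other assays had a median of 0.04. On raw Ct, where the median of all assays moved to 0.93, the star assays stood at 0.42 and 0.31, still below that median.

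The difference between the arms of one hairpin family in a single sample does not depend on the scaling. By Ct, miR-467a stood at -6.74, -5.51, -3.90, -6.73, -5.39 and -5.53 log2 units relative to miR-467a* in ligated samples 1 to 6, and at -7.81, -6.35, -6.72, -7.71, -7.01 and -7.80 in control samples 1 to 6. The means were -5.63 ± 1.05 in ligated and -7.23 ± 0.63 in control arteries (SD, n = 6 each), and the groups overlapped through ligated 1 and 4 and control 2 and 3. For miR-467b relative to miR-467b* the means were 0.84 ± 1.56 in ligated and -0.63 ± 1.08 in control arteries, with wide overlap. The 2 star forms kept an almost fixed distance from each other, 5.30 ± 0.42 in ligated and 5.19 ± 0.24 in control arteries.

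**Figure D4:**
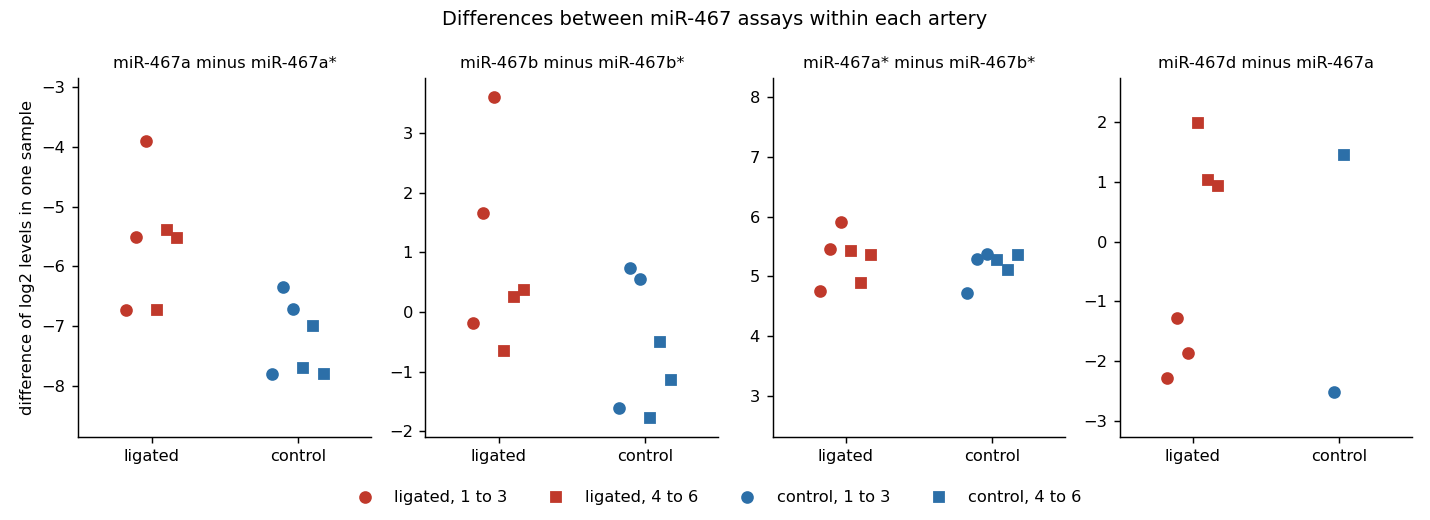
Difference between the log2 levels of 2 miR-467 assays in the same artery (y axis, a span of 6 in each panel) in ligated and control arteries (x axis), with circles for numbers 1 to 3 and squares for 4 to 6. The distance between the star forms varies least, from 4.73 to 5.90 over the 12 samples, and miR-467d minus miR-467a splits by number, with no point where miR-467d did not amplify.

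The assays most like each member were found by the SD, over the 12 samples, of the difference between the levels of 2 assays, among 282 others detected in every sample. This measure does not use the scaling, and its median over all assays lay between 0.95 and 1.20 for the 6 members. miR-467a* ran closest to let-7c-1* (SD 0.27), miR-467b* (0.33) and miR-18a* (0.34), and miR-467b* to miR-467a* (0.33), miR-18a* (0.47) and let-7c-1* (0.51). Of the 10 nearest assays of each star form 8 were star-named, although only 59 of 282 were. The opposite arm miR-467a ranked 174 of 282 for miR-467a*, with an SD of 1.17, and miR-467e, the nearest unstarred member, ranked 34, with 0.63.

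None of the 10 nearest assays of miR-467a, miR-467b and miR-467c was star-named, and 2 were for miR-467e. miR-467a ran closest to miR-340-5p (0.28), miR-339-5p (0.35) and miR-31 (0.37), miR-467c to miR-467a (0.42), miR-324-3p (0.45) and miR-339-5p (0.48), and miR-467b to miR-125a-5p (0.36), miR-106a (0.37) and miR-17 (0.38). miR-467e had the closest neighbours of all 6, miR-324-5p (0.22), miR-181a (0.24) and miR-130b (0.26). After removal of each group's mean, 9 of these 18 neighbours stayed among the nearest 3, all 3 of them for miR-467b and none for miR-467c, whose neighbours then ranked 22, 8 and 28.

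The control RNAs, several of which are listed in 2 rows, also moved with these patterns. Against miR-467a the first row of snoRNA135 had an SD of 0.33 and the second row 0.82, while against miR-467a* the second row was the closer, with 0.66, and the first row had 0.94. For snoRNA202 the second row was again closer to miR-467a*, with 0.45, and the first row had 0.64. Over the 5 repeated control RNAs (U6, snoRNA135, snoRNA202, U87 and Y1), the first row was closer to miR-467a for all 5, and the second row was closer to miR-467a* for 3, with U6 and Y1 the exceptions. Which assays were run together with which row is not given, and the part of this in the contrast between star and other forms was not tested. Scaled to the first rows of the 5 repeated control RNAs, the differences were 1.04 for miR-467a and -0.56 for miR-467a*, and scaled to the second rows they were 1.20 and -0.40.

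The relatives from the same cluster were mostly undetected. Of the 10 assays for miR-466, miR-669 and miR-297, 6 were detected in no sample, and only miR-669a in all 12. miR-669a had levels of -2.59 to -1.29 (median -2.04) in ligated arteries and -2.59 to -1.62 (median -1.96) in control arteries, with a difference of 0.07 ± 0.27 (SE). miR-466d-3p amplified at a Ct of 16.10 to 19.02 in 4 of 6 ligated and 17.06 to 18.68 in 4 of 6 control arteries. In the others it was at 40, with no value in between. Whether wells of these relatives at 40 lacked the RNA or failed as reactions was not tested. miR-297c amplified in 2 ligated and 2 control arteries, all numbered 2 or 3, and miR-297a* in ligated 4 and 6 alone. Only miR-669a and miR-466d-3p were detected often enough to be tested, and neither passed.

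Some lists of cell type marker miRNAs differed between the same groups and others did not. The mean level of 6 leukocyte miRNAs lay between 3.23 and 4.30 in ligated and between 1.72 and 2.14 in control arteries. Of the 6, all detected in every sample, 4 passed as higher, beside 7.37% of all 339 assays. The smooth muscle list held miR-143, miR-145, miR-1 and miR-133a. Its mean lay between 3.74 and 5.43 in ligated and between 5.25 and 7.38 in control arteries. The first 3 passed as lower, beside 5.01% of all 339 assays. Whether these 4 mark smooth muscle alone was not tested. The 2 endothelial miRNAs lay between 4.63 and 6.84 in ligated and between 5.09 and 6.30 in control arteries, and neither passed. The mean of 2 red blood cell miRNAs lay between -5.20 and 0.91 in ligated and between -4.34 and 0.54 in control arteries, and that of 2 neuronal miRNAs between -1.48 and 0.26 in ligated and between -3.21 and 0.79 in control arteries. No miRNA of either list passed, 1 of 2 in each was detected in every sample, and the other red blood cell miRNA had a median Ct of 40. The part of these shifts in the miR-467 differences was not tested.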

How the data were processed

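RNA was isolated with a mirVana kit, per the labels' protocols. The authors deposited raw Ct values, per the file headers, and a table of processed values, which match each sample's Ct after subtraction of its U6 and snoRNA429 average to within 5e-05 cycles over 513 rows, so that lower means more RNA (column medians 10.7 to 13.8). The sources used here name neither the PCR instrument nor its threshold. A separate run of 4 other assays was not used.

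The members, lists and alternatives were chosen with earlier results of these data known. Ct of 35 or more was set to 35, the 283 miRNAs with product in all 12 samples gave the scaling, and 339 assays with product in 4 or more of a group's 6 samples entered limma 3.58.1 (R 4.3.3), without covariates. P-values were Benjamini-Hochberg adjusted over all 339. The fit was also run on simulated levels with independent noise. That run had no shift between the sets, no undetected wells and no scaling, so it does not test their effect. The labels number each group 1 to 6. After subtraction of group means, samples sharing a number correlated with r of 0.25 to 0.70 over 283 assays, or -0.11 to 0.31 with the sets removed. Much of that correlation thus lay in the shift between the sets, and the labels do not say that a number marks one mouse. The fit had no block, and a block on the number was an alternative, given beside each call it changed. The rule for named assays took all members, the related families, the 3 nearest assays of each member and the control RNAs. Marker miRNAs were given as ranges per list, and those listed for smooth muscle are also named. Nothing says that all 12 RNAs came from separate extractions, so SE values measure the spread between these samples.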

Additional observations from a re-analysis of the deposited data

How the results depend on the processing

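The 12 samples limit precision. The whole fit called 25 assays higher and 17 lower in ligated arteries. These counts became 7 and 3 with scaling to U6 and snoRNA429, 8 and 4 in the deposited value table, 57 and 0 on raw Ct, 5 and 0 within numbers 1 to 3, and 50 and 51 within numbers 4 to 6. With raw Ct 118 assays, and within numbers 1 to 3 39 assays, had an unadjusted p under 0.05 in limma. The sets as a block gave 37 higher and 30 lower. Scaling to the second rows of 5 control RNAs (an alternative chosen after seeing the data) gave 19 higher and 8 lower. The fits without 1 sample called 15 (control 6 omitted) to 26 higher and 10 to 20 lower. At most 11 were lower when ligated 5 or 6 or control 1, 3, 4 or 6 was omitted. With the replicate block the counts were 30 and 22. That fit lost the call of miR-467c, added that of miR-467b and changed no other call among the members.

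The 3 miR-467 calls became 0 with scaling to U6 and snoRNA429, in the deposited table and within numbers 1 to 3, and 1 within numbers 4 to 6. They became 1 to 2 without 1 sample, 1 when ligated 5 or 6 or control 1, 2, 5 or 6 was omitted. They rose to 4 on raw Ct, where miR-467e was added, and to 4 with the sets as a block, where miR-467b was added. On raw Ct, where the median of all assays was 0.93, the differences were 2.02 for miR-467a, 1.78 for miR-467b, 1.94 for miR-467c, 1.17 for miR-467e and 0.42 for miR-467a*. That of miR-467c was 1.40 within numbers 1 to 3 and 0.50 within 4 to 6. That of miR-467d was 8.60 with undetected wells at 40, 1.40 with them missing and 8.40 in the deposited table. Of 18 nearest assays, 9 stayed after removal of group means. The cause of these changes was not tested. No alternative turned the direction of a called member, but all refit the same samples and the group was proposed with their values known. For miR-467d the direction also follows in part from the value set for its undetected control wells. The kept direction is therefore no support for a difference.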
